A study of Mus musculus with 18 samples.

Results

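The comparison described here was made within the KO mice of a Prmt1 deletion study, between small intestinal crypts collected 14 days and 2 days after the first tamoxifen injection. Its members are the 3 KO libraries of day 14 and the 3 KO libraries of day 2, chosen by the genotype and day in their labels, and they are 6 of the 18 RNA-Seq libraries in all. In the KO mice both Prmt1 alleles carried LoxP sites and CreERT2, a tamoxifen-activated Cre recombinase, was driven by the villin promoter. The WT mice were littermates with the same LoxP-flanked alleles and no Cre, and their 3 libraries of day 14 and 3 of day 2 served to show the change with time in mice that received the same drug. All mice were 8 to 12 weeks old and were given tamoxifen at 2 mg a dose. Those of day 2 had been given 2 doses and those of day 14 had been given 5. The villin promoter is active in the epithelium only, so other cells of the crypt preparation kept their Prmt1 alleles. Each library came from 1 mouse, and the ribosomal RNA-depleted total RNA of its purified crypts was sequenced. The day of collection cannot be told apart from the number of doses, the age of the mice or the session in which they were collected. Only the KO mice carried Cre, so effects of its activation and of Prmt1 loss cannot be told apart by comparison with WT.

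PRMT1 is the main enzyme that places asymmetric dimethylarginine on histones, RNA-binding proteins and other substrates. Intestinal crypts hold the stem cells that renew the epithelium, and their daughters become either absorptive enterocytes or secretory cells. The secretory cells are the mucus-making goblet cells, the antimicrobial Paneth cells at the crypt base, the chemosensory tuft cells and the hormone-making enteroendocrine cells (EECs). EECs arise when a progenitor briefly makes Neurogenin 3 (Neurog3), which switches on a cascade of further transcription factors that end in the production of individual hormones. Comparing day 14 with day 2 in the KO mice asks which transcripts differed after the epithelium had renewed itself under the deletion from those at its start.

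The 6 KO libraries held between 14885483 and 24181072 counts, with a mitochondrial share between 6.84% and 9.76% in the day 2 libraries and between 8.50% and 12.7% in the day 14 libraries. The share taken by the 20 most abundant genes lay between 18.6% and 21.3% in the former and between 26.5% and 32.9% in the latter, without overlap. In WT it lay between 20.3% and 20.7% and between 24.4% and 30.3%, and its part in the results was not tested beyond fits that left the 20 most abundant genes out. Transcripts of stem cells and Paneth cells were present in all 6 KO libraries, as the label of crypts implies. Those of enterocytes, which the label does not imply, were present in all 6 as well. Prmt1 itself, on chr7:44976000-44986600 (mm10, minus strand), was at 15.8, 13.1 and 14.3 CPM (counts scaled to the TMM-normalized size of each library) in the KO libraries of day 2 and at 16.1, 15 and 15.1 CPM at day 14. The groups overlapped (log2 fold change 0.10, SE 0.14, adjusted p = 0.688 by edgeR's quasi-likelihood test, and p = 0.4 by a two-sided exact permutation test, whose smallest possible p is 0.1). These levels were 54.1% of the WT mean at day 2 and 60.9% at day 14, so the comparison is between 2 stages that both had less Prmt1 transcript than WT. Counts are for the whole gene, so exons outside the deleted part add to these values. High counts of the X-inactivation transcript Xist were found in 1 library, replicate 3, of each of the KO and WT groups at days 2 and 14. Leaving out a replicate 3 thus removed the only library of its group with high Xist.

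Between day 2 and day 14 the KO crypts gained transcripts of many EEC genes and lost transcripts of some genes of Paneth cells, lysosomes and DNA repair, and many circadian clock genes changed in both genotypes. Of 21349 genes tested, 2411 differed and are called DEGs, which is 11.3% of the genes. The threshold was 0.05 for the p of edgeR's quasi-likelihood test after Benjamini-Hochberg adjustment. Among them 1183 (5.54% of genes) were higher and 1228 (5.75%) were lower at day 14. The median size of their change was 0.885 on the log2 scale, and 131 rose and 73 fell by more than 4-fold. Across all genes the median log2 fold change was −0.02. Protein-coding genes made up 70.7% of the DEGs that rose, 86.5% of those that fell and 67.3% of the genes tested. The count depended on single libraries. It was 1162 without KO day 14 replicate 1, 1323 without replicate 3, and 1348 and 1136 without KO day 2 replicates 1 and 3, against 2104 and 2892 without the KO libraries of replicate 2 at day 14 and day 2.

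Fewer genes passed in the WT mice over the same days. In them 343 genes (1.61%) passed the same test, 157 (0.735%) higher and 186 (0.871%) lower at day 14. Of these, 141 were DEGs in the KO mice too, which is 41.1% of the WT list and 5.85% of the KO list, and 139 of the 141 moved in the same direction. Over all genes the log2 fold changes of KO and WT had a Pearson correlation of 0.38 across genes, which are not independent replicates. A test of the difference between the KO and WT changes passed for 223 genes (1.04%), 74 (0.347%) with a more positive and 149 (0.698%) with a more negative change in KO. Of the 223, 206 were DEGs in KO and not in WT. The WT count was 28 when only those 6 libraries entered the fit, and leaving out WT day 2 replicates 1, 2 and 3 in turn gave 22, 712 and 61. It was 47 without WT day 14 replicate 1 and 156 without its replicate 3. The count for the difference fell to 116 and 132 without KO day 14 replicates 1 and 2, to 143 without KO day 2 replicate 3 and to 111 without WT day 2 replicate 1.

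**Figure D1:**
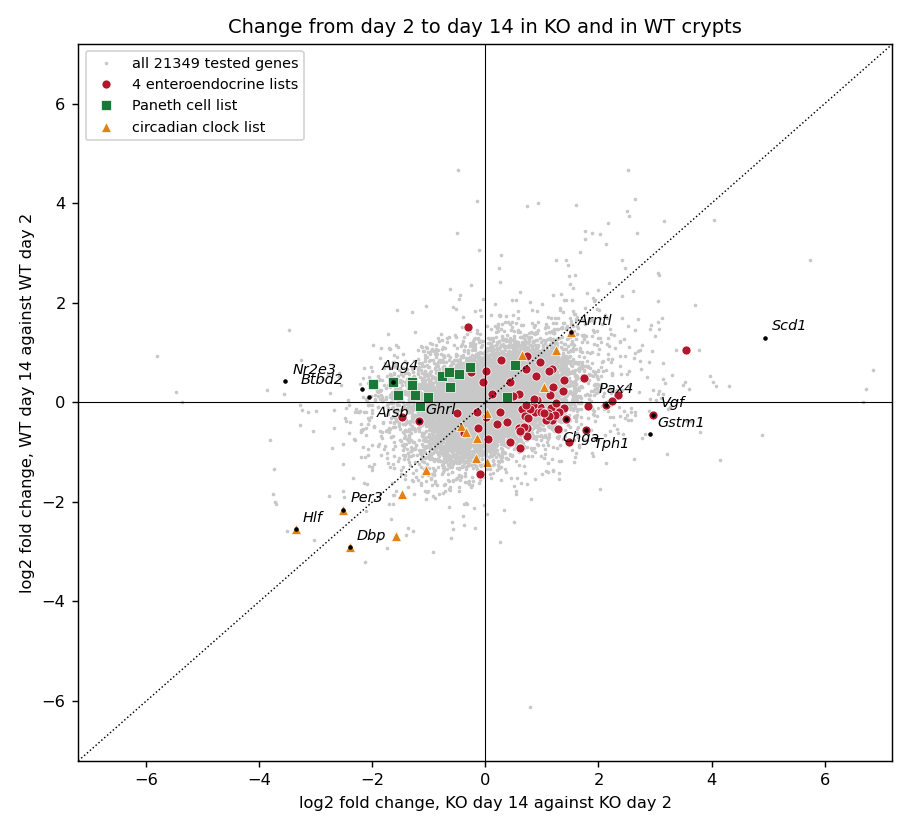
Change from day 2 to day 14 in KO mice (horizontal axis, log2 fold change) against the same change in WT mice (vertical axis, log2 fold change), with 1 point per gene for 21349 genes and the EEC, Paneth cell and clock lists in colour. EEC genes such as Pax4 and Tph1 lie far right on the KO axis near or below 0 on the WT axis, 14 of the 16 Paneth cell genes lie left of 0, and clock genes such as Arntl and Per3 lie along the line of equal change.

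Many transcription factors of the EEC lineage rose in the KO mice. Of 20 tested, 13 were called higher, none lower and 7 in neither direction, beside 5.54% of all genes called higher, and their median log2 fold change was 1.06 against −0.02 for all genes. In WT the median was −0.01 and none of the 20 was called. The study picked many of these genes from the same libraries, so the counts of this and the next 3 lists are not independent evidence of a direction. In bulk crypts, more cells of a type and more RNA per cell cannot be told apart. For 15 of the 20 the libraries of day 14 and day 2 did not overlap, beside 32.4% of all genes tested.

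Neurog3, the factor that commits progenitors to the EEC fate, was at 2.93, 2.85 and 4.1 CPM in the KO libraries of day 2 and at 8.12, 8.07 and 6.68 CPM at day 14. All libraries of day 14 were above all of day 2, by 2.3-fold (log2 fold change 1.20, SE 0.23, adjusted p = 0.00219), whereas WT had 2.38, 2.62 and 3.19 CPM at day 2 and 3.93, 4.07 and 2.22 CPM at day 14. The KO minus WT difference of the log2 fold changes, given as the difference from here on, did not pass the test (difference 0.89, SE 0.33, adjusted p = 0.238). Neurod1, which acts downstream of Neurog3, rose from 2.93, 2.45 and 3.88 CPM to 9.22, 7.13 and 6.21 CPM (log2 fold change 1.28, SE 0.21, adjusted p = 0.000791). In WT it went from 4.14, 4 and 5.16 CPM to 3.02, 3.16 and 3.06 CPM, and the KO change was the more positive (difference 1.80, SE 0.30, adjusted p = 0.00473). Pax4, a homeobox factor of early EEC progenitors, rose from 0.533, 0.628 and 0.69 CPM to 3.32, 2.14 and 2.77 CPM with no overlap (log2 fold change 2.13, SE 0.28, adjusted p = 0.00012), a 4.38-fold increase. In WT it stayed between 0.594 and 1.07 CPM in all 6 libraries, and the genotypes differed (difference 2.19, SE 0.41, adjusted p = 0.00987).

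Fev, a factor of serotonin-making cells, rose from 0.599, 0.342 and 0.431 CPM to 2.79, 1.83 and 2.29 CPM (log2 fold change 2.34, SE 0.32, adjusted p = 0.000181). The day 14 libraries were all above those of day 2, and the rise was larger than the WT change of 0.14 (difference 2.20, SE 0.47, adjusted p = 0.0239). Insm1, a zinc finger factor of endocrine differentiation, rose from 4.13, 2.68 and 4.53 CPM to 11.1, 8.2 and 10.5 CPM (log2 fold change 1.39, SE 0.23, adjusted p = 0.000663). Lmx1a, another factor of serotonin-making EECs, was at 2.33, 3.48 and 3.24 CPM and then at 6.54, 7.76 and 6.21 CPM, again with no overlap (log2 fold change 1.17, SE 0.20, adjusted p = 0.000976), and differed from the WT change (difference 1.52, SE 0.28, adjusted p = 0.00987). Myt1, a zinc finger factor of endocrine progenitors, rose by 1.15 on the log2 scale (adjusted p = 0.000877) and differed from WT (difference 1.26, adjusted p = 0.0257). Also called higher were Pax6 (log2 fold change 1.27, adjusted p = 0.00151), Glis3 (log2 fold change 1.37, adjusted p = 0.00232), Rfx6 (log2 fold change 0.97, adjusted p = 0.00361) and Nkx2-2 (log2 fold change 1.18, adjusted p = 0.00739), all factors shared with pancreatic islet cells, and St18 and Etv1 with 0.91 and 0.87. Isl1, which acts in peptide hormone cells, was not called (log2 fold change 0.66, adjusted p = 0.108). Of Nkx2-2, St18 and Etv1, at least 1 lost its call without KO day 2 replicate 1 or 3 or KO day 14 replicate 1 or 3, with no filter on low counts, with only the groups compared and with the Xist covariate (adjusted p between 0.052 and 0.194).

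Neurog3 and Neurod1 belong to the basic helix-loop-helix factors, which bind E-box sequences, and the form CAGATG was searched on both strands. The search covered RefSeq promoter windows of 300 bases, from 250 bases before to 50 after each gene start. Of the 40 genes of the 4 EEC lists called higher, 30 had a window and 8 of these (26.7%) held the motif. All tested genes of these lists, called or not, gave 12 of 51 with a window (23.5%). The share was 19.2% of all 27025 genes with a window and 14.7% of the 12259 that were also tested. The 250 bases before the start are given for 4 of the called genes with the motif, 1 transcription factor and 3 hormones. The motif, as read on either strand, is in capitals. These are examples of the called genes described here whose letters before the start hold it. All are from build GRCm38.p6 and the minus strand, written 5′ to 3′, on chr2:147186403-147186652 for Nkx2-2, chr2:62483654-62483903 for Gcg, chr9:121495695-121495944 for Cck and chr13:3945350-3945599 for Ucn3. The first base of the motif lies 220 bases before the start in Nkx2-2, 139 and 83 in Gcg, 30 in Cck and 87 in Ucn3. A match describes the letters and is no evidence of binding.
Nkx2-2: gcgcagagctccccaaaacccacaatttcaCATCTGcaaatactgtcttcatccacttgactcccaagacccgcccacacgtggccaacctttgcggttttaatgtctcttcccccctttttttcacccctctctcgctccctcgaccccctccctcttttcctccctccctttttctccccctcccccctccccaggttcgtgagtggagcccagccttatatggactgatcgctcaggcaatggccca
Gcg: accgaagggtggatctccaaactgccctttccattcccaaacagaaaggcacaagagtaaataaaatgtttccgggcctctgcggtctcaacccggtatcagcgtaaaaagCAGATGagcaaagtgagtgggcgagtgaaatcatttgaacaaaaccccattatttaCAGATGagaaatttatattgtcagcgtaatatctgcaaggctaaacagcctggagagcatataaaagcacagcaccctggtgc
Cck: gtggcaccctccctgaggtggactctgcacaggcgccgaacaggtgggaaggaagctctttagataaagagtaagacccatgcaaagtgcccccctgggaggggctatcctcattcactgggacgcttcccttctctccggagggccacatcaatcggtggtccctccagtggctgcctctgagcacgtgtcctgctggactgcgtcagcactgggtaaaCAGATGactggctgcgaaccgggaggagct
Ucn3: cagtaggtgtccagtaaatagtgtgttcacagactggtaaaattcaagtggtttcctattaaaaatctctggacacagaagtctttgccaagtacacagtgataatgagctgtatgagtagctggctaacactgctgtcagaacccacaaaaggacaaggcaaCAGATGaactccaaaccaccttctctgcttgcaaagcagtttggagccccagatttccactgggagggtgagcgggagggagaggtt

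Several hormone and serotonin genes rose as well, and ghrelin fell. Of 20 listed genes 16 passed the filter on low counts, and 9 were called higher, 1 lower and 6 in neither direction, beside 5.54% of all genes called higher and 5.75% lower. Their median log2 fold change was 0.74 in KO and −0.45 in WT, where none was called. Their summed level was 490.5 to 693.4 CPM in KO at day 2 and 1044 to 1213 CPM at day 14, against 394.7 to 532.7 CPM in WT at day 14.

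Chga, the granule protein chromogranin A, was at 59, 88.9 and 94.6 CPM in the KO libraries of day 2 and 217, 248 and 189 CPM at day 14 (log2 fold change 1.43, SE 0.18, adjusted p = 7.05e-05). The lowest day 14 library was above the highest day 2 library, while WT had 78.7, 62.7 and 98.2 CPM at day 2 and 54.5, 72.6 and 63.2 CPM at day 14. The genotypes differed in this change (difference 1.76, SE 0.25, adjusted p = 0.00157). Tph1, the rate-limiting enzyme of serotonin synthesis in enterochromaffin cells, went from 16.6, 12 and 19 CPM to 59.4, 60.6 and 43 CPM (log2 fold change 1.77, SE 0.18, adjusted p = 1.23e-05). This was a 3.42-fold rise with no overlap, in contrast to WT levels of 17.5, 14.5 and 21 CPM at day 2 and 9.82, 13.9 and 12 CPM at day 14 (difference 2.34, SE 0.26, adjusted p = 0.000209). Chgb, chromogranin B, rose from 141, 255 and 216 to 446, 461 and 386 CPM (log2 fold change 1.08, SE 0.20, adjusted p = 0.00165). Its KO change was also the more positive (difference 1.43, SE 0.28, adjusted p = 0.0134).

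Among the peptide hormones, Gip, the incretin of duodenal K cells, had 38.4, 63.6 and 61.5 CPM at day 2 and 97.2, 87.9 and 85.9 CPM at day 14 (log2 fold change 0.73, SE 0.19, adjusted p = 0.0172). The KO day 14 libraries were all higher than those of day 2, and WT went from 62.7, 47.3 and 72.2 to 29.8, 40.4 and 43 CPM, and the genotypes differed (difference 1.41, SE 0.27, adjusted p = 0.0107). Gcg, the precursor of the glucagon-like peptides, rose from 30.6, 27.6 and 44.5 to 67.5, 47.8 and 61.8 CPM (log2 fold change 0.78, SE 0.20, adjusted p = 0.0159). Cck, cholecystokinin, which stimulates gallbladder and pancreas, rose from 16.3, 17.1 and 19.3 to 30.3, 27.1 and 31 CPM (log2 fold change 0.74, SE 0.22, adjusted p = 0.0366). These 2 rises were below 2-fold, and their groups did not overlap. Tac1, the substance P precursor made by enterochromaffin cells, rose from 10.7, 7.76 and 14.5 to 20.9, 19.1 and 19.6 CPM (log2 fold change 0.84, SE 0.20, adjusted p = 0.00973). Pyy, the distal hormone peptide YY, rose from 2.66, 1.71 and 5.13 to 8.43, 7.25 and 9.85 CPM (log2 fold change 1.40, SE 0.38, adjusted p = 0.0232). Ucn3, urocortin 3, rose from 0.466, 0.913 and 0.733 to 2.16, 3.15 and 2.23 CPM (log2 fold change 1.81, SE 0.30, adjusted p = 0.00078), and none of these 3 had overlapping days.

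Ghrl, which encodes the appetite hormone ghrelin of X cells, moved the other way, from 10.3, 15.9 and 14.6 CPM to 5.27, 7.38 and 5.4 CPM (log2 fold change −1.18, SE 0.17, adjusted p = 0.000275). All day 14 libraries were below all of day 2, and WT had 14.6, 14.4 and 14.5 CPM at day 2 and 9.74, 12.1 and 11.7 CPM at day 14. The difference from WT did not pass the test (difference −0.81, SE 0.24, adjusted p = 0.114). Sct, Sst and Nts, for secretin, somatostatin and neurotensin, had log2 fold changes of 0.44, −0.37 and 0.04 (adjusted p = 0.393, 0.41 and 0.952) with overlapping libraries. The number of hormone genes called higher was 5 without KO day 14 replicate 1 or without KO day 2 replicate 1. Of Gip, Gcg, Cck and Pyy, at least 1 lost its call without KO day 2 replicate 1, 2 or 3 or KO day 14 replicate 1 or 3 (adjusted p between 0.0566 and 0.126).

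**Figure D2:**
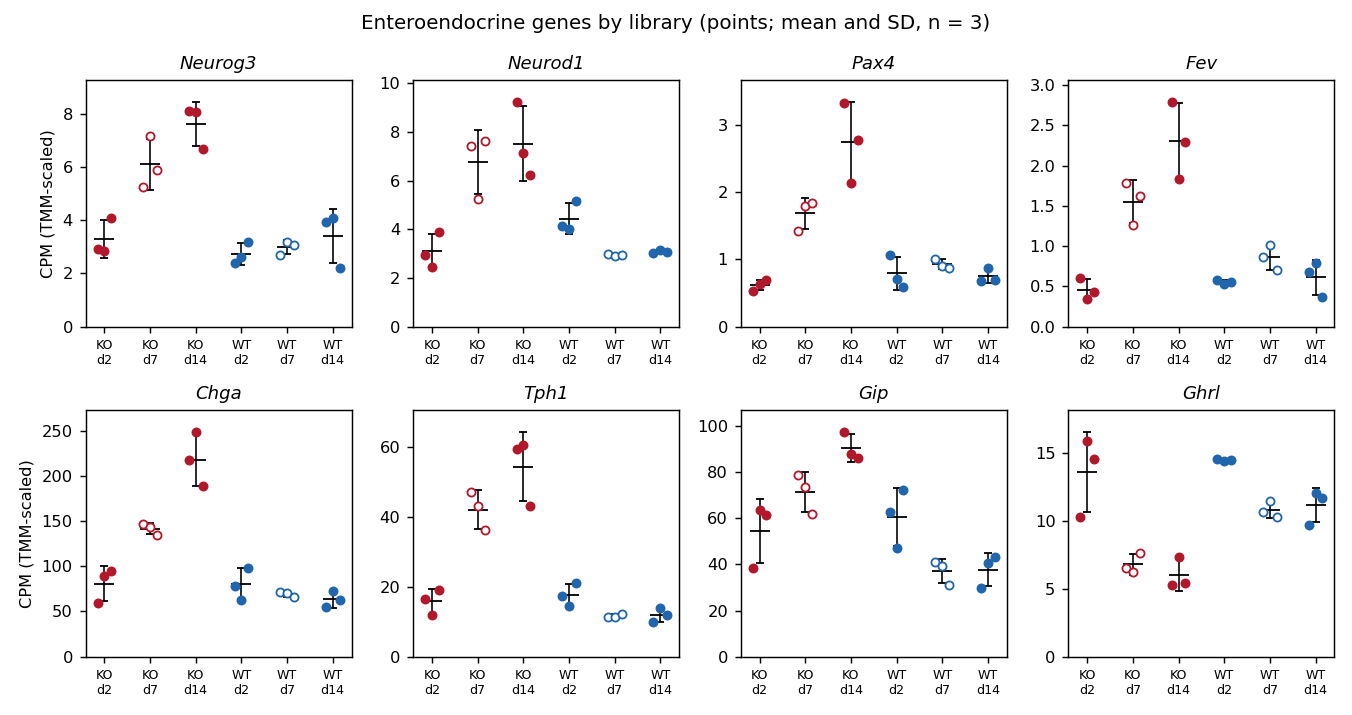
Levels in CPM (vertical axes, starting at 0) of 8 EEC genes in KO and WT at days 2, 7 and 14, with 1 point per library and the bar and line at the mean ± SD of 3 libraries. KO libraries of day 14 lie above those of day 2 for Neurog3, Neurod1, Pax4, Fev, Chga, Tph1 and Gip and below them for Ghrl, and in WT the 2 days overlap or day 14 is the lower.

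Many genes for prohormone processing and secretory granules rose too. Of 19 tested, 11 were called higher and 1 lower, beside 5.54% and 5.75% of all genes, with a median log2 fold change of 0.72 in KO and −0.22 in WT. Ptprn, a membrane protein of dense-core granules, had 1.33, 2.11 and 2.46 CPM at day 2 and 8.22, 10 and 10.1 CPM at day 14 (log2 fold change 2.24, SE 0.26, adjusted p = 3.12e-05). This 4.72-fold rise had no overlap and exceeded the WT change (difference 2.22, SE 0.37, adjusted p = 0.00481). Vgf, the precursor of granule peptides, rose from 0.2, 0.171 and 0.173 to 2.27, 0.946 and 1.08 CPM (log2 fold change 2.97, SE 0.44, adjusted p = 0.000338), against a fitted WT value of −0.24 (difference 3.21, SE 0.66, adjusted p = 0.018). Stxbp5l, a syntaxin-binding regulator of exocytosis, rose from 3.79, 3.37 and 2.8 to 9.65, 9.59 and 8.36 CPM (log2 fold change 1.48, SE 0.21, adjusted p = 0.000195) and differed from WT (difference 2.28, SE 0.30, adjusted p = 0.000771). Cadps, which primes dense-core granules for release, rose from 3.39, 3.59 and 3.28 to 8.91, 8.07 and 8.23 CPM (log2 fold change 1.30, SE 0.20, adjusted p = 0.000375). The complexin Cplx2 rose by 1.13 on the log2 scale (adjusted p = 0.000419). The prohormone convertase Pcsk1 went from 19.8, 19.7 and 27.2 to 38.8, 38.9 and 31.3 CPM (log2 fold change 0.70, SE 0.14, adjusted p = 0.00343). The carboxypeptidase Cpe rose from 10.8, 13.9 and 13.6 to 23.2, 20.6 and 20.7 CPM (log2 fold change 0.75, SE 0.17, adjusted p = 0.00762). Both also differed from WT (difference 0.98, adjusted p = 0.018 and difference 1.05, adjusted p = 0.0346). Scg5, the chaperone of the convertase Pcsk2, fell from 1.46, 1.2 and 1.73 to 0.474, 0.378 and 0.742 CPM (log2 fold change −1.47, SE 0.39, adjusted p = 0.0197). The list had 7 genes called higher without KO day 14 replicate 1 or without KO day 2 replicate 1. Scg5 lost its call without KO day 2 replicate 3 or KO day 14 replicate 1 or 2 (adjusted p between 0.0764 and 0.0901).

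The channels and nutrient receptors through which EECs sense and signal gave 7 of 17 tested genes called higher, beside 5.54% of all genes, and none lower, with a median of 0.90 in KO and 0.40 in WT. Kcnh6, a potassium channel, rose from 3.79, 4.79 and 3.19 to 15.1, 12.2 and 12.1 CPM (log2 fold change 1.75, SE 0.20, adjusted p = 3.64e-05). Scn3a, a sodium channel subunit, rose from 6.52, 7.93 and 6.69 to 18.2, 16.3 and 15.1 CPM (log2 fold change 1.23, SE 0.16, adjusted p = 7.45e-05). Neither gene overlapped between the days, and both differed from WT (difference 1.27, adjusted p = 0.0346 and difference 1.48, adjusted p = 0.00243). Abcc8, the sulfonylurea receptor of the ATP-sensitive potassium channel, rose by 1.13 (adjusted p = 0.000509) and the calcium channel subunit Cacna2d1 by 0.98 (adjusted p = 0.00522). The calcium channel gene Cacna1h and the fatty acid receptor Ffar1 had log2 fold changes of 0.97 and 1.03. Olfr78, an olfactory receptor of enterochromaffin cells, had 34 counts over the day 14 libraries and 3 at day 2, a ratio of 12.7 with a 95% counting interval of 4.0 to 64.7. Without KO day 2 replicate 1 only 4 genes of the list were called. Of Cacna1h, Ffar1 and Olfr78, at least 1 lost its call without KO day 2 replicate 1 or 3 or KO day 14 replicate 1 or 3 (adjusted p between 0.055 and 0.103).

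Some neuronal markers were higher beside these lists. Of 14 markers of enteric neurons and glia, 6 passed the filter on low counts, and 2 were called higher, beside 5.54% of all genes, the neurofilament Nefm (log2 fold change 1.45, adjusted p = 0.0288) and the GDNF receptor Ret (log2 fold change 0.89, adjusted p = 0.0487). Their summed level was 6.32 to 7.53 CPM in KO at day 2 and 11.6 to 13.7 CPM at day 14, no defining marker was at 0, and their part in the EEC result was not tested. Of Nefm and Ret, at least 1 lost its call without KO day 2 replicate 1, 2 or 3 or KO day 14 replicate 1, 2 or 3 and with the Xist covariate (adjusted p between 0.0531 and 0.175). Some of these genes are also made by EECs.

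Some Paneth cell transcripts fell by day 14. Of 16 markers tested, 5 were called lower and none higher, beside 5.75% of all genes called lower, and the libraries of 13 did not overlap, beside 32.4% of all genes tested. The median log2 fold change was −1.09 in KO, whereas it was 0.37 in WT with no call, and no single marker passed the test of the difference between genotypes. Spink4, a peptide of secretory cells, was at 438, 427 and 431 CPM at day 2 and 210, 213 and 217 CPM at day 14 (log2 fold change −1.02, SE 0.20, adjusted p = 0.0024). The KO libraries of each day lay within a narrow range and the days were far apart, while WT had 281, 288 and 348 CPM at day 2 and 472, 259 and 258 CPM at day 14 (difference −1.12, SE 0.28, adjusted p = 0.0528). Its call held under every alternative tried.

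Mmp7, the protease that activates defensins, fell from 265, 176 and 251 to 112, 75.8 and 90 CPM (log2 fold change −1.32, SE 0.40, adjusted p = 0.0441), against 124, 134 and 236 CPM at day 2 and 344, 132 and 159 CPM at day 14 in WT. Ang4, a bactericidal ribonuclease, fell from 488, 228 and 420 to 134, 141 and 91.4 CPM (log2 fold change −1.64, SE 0.43, adjusted p = 0.0222). Mptx2, a pentraxin of Paneth cells, fell from 327, 228 and 304 to 101, 35.1 and 79.6 CPM (log2 fold change −2.0, SE 0.58, adjusted p = 0.0395). Itln1, the lectin intelectin, fell from 2500, 1520 and 2440 to 923, 923 and 783 CPM (log2 fold change −1.30, SE 0.41, adjusted p = 0.0486). In each of these the 3 libraries of day 14 were below those of day 2, and the day 2 libraries varied, with replicate 2 the lowest. Lyz1, the Paneth cell lysozyme, was at 7620, 3950 and 5850 CPM at day 2 and 3640, 3450 and 3110 CPM at day 14 and was not called (log2 fold change −0.77, SE 0.37, adjusted p = 0.187). Of the list only 1 gene was called with no filter on low counts, without KO day 14 replicate 1 or 3, or without KO day 2 replicate 1 or 3, and 3 were called without KO day 14 replicate 2. With the Xist covariate 2 were called. With only the groups compared 9 were called lower and 1 higher, and DESeq2's Wald test gave 7 lower and 1 higher. Of Mmp7, Ang4, Mptx2 and Itln1, at least 1 lost its call without KO day 2 replicate 1 or 3 or KO day 14 replicate 1, 2 or 3, with DESeq2 size factors, with no filter on low counts, with the 20 most abundant genes left out and with the Xist covariate (adjusted p between 0.0513 and 0.149).

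Goblet cell genes gave 2 of 16 called higher and 1 lower, beside 5.54% and 5.75% of all genes, at medians of 0.09 in KO and 0.17 in WT. With 1 library left out the KO median lay between 0.02 and 0.12. Clca1, a secreted mucus protein, fell from 1040, 1100 and 1030 to 362, 637 and 481 CPM (log2 fold change −1.10, SE 0.20, adjusted p = 0.0018), with no overlap. Klk1, a kallikrein protease, rose from 42.8, 52 and 48.3 to 68.2, 80.3 and 88.3 CPM (log2 fold change 0.73, SE 0.13, adjusted p = 0.00114). Spdef, a factor of goblet and Paneth cell maturation, had a log2 fold change of 0.59 (adjusted p = 0.0304). Muc2, the main gel-forming mucin, had a log2 fold change of 0.01 (adjusted p = 0.973). Tuft cells gave 2 of 14 genes called higher, beside 5.54% of all genes, with a median of 0.30 in both genotypes. Ltc4s, leukotriene C4 synthase, rose from 2.66, 3.37 and 3.54 to 6.17, 6.88 and 7.08 CPM (log2 fold change 1.06, SE 0.22, adjusted p = 0.00413), and the taste channel Trpm5 rose as well (log2 fold change 0.78, adjusted p = 0.017), while the marker Dclk1 was not called (log2 fold change 0.31, adjusted p = 0.464). Of Spdef and Trpm5, at least 1 lost its call without KO day 2 replicate 1, 2 or 3 or KO day 14 replicate 1 or 3 (adjusted p between 0.0684 and 0.126).

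**Figure D3:**
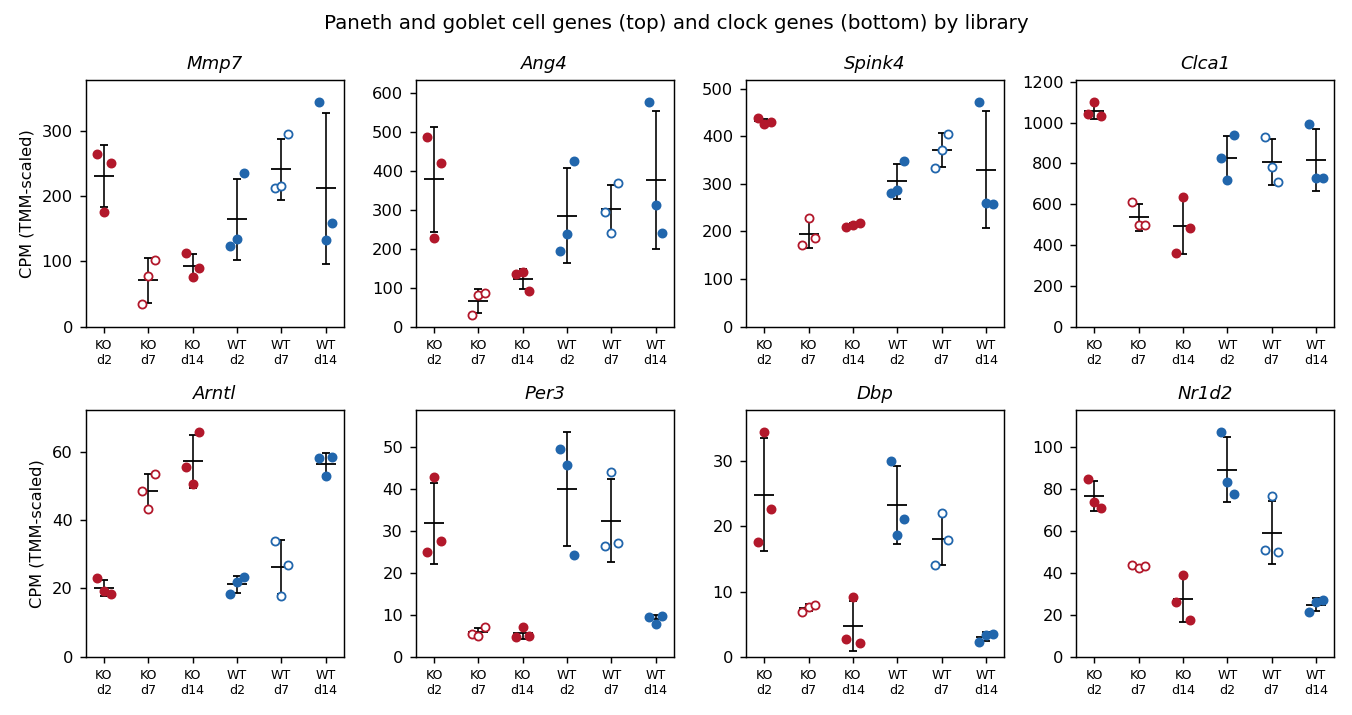
Levels in CPM (vertical axes, starting at 0) of the Paneth cell list genes Mmp7, Ang4 and Spink4, of the goblet cell gene Clca1, and of the clock genes Arntl, Per3, Dbp and Nr1d2 in KO and WT at days 2, 7 and 14, with 1 point per library and the mean ± SD of 3 libraries. The upper 4 genes are lower at day 14 than at day 2 in KO, and the clock genes move in the same direction in both genotypes.

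Stem cell and Wnt target genes gave 1 of 19 called higher and 4 lower, beside 5.54% and 5.75% of all genes, with a median of −0.25 in KO and 0.18 in WT. Tnfrsf19, a Wnt target of crypt base cells, fell from 9.79, 6.56 and 11.1 to 4.43, 3.72 and 3.78 CPM (log2 fold change −1.20, SE 0.31, adjusted p = 0.0168). Cdca7, a MYC-responsive gene of cycling cells, fell from 72.6, 64.1 and 84.5 to 46.9, 38.3 and 46.3 CPM (log2 fold change −0.75, SE 0.18, adjusted p = 0.00984). Prom1 and Smoc2 had log2 fold changes of −0.60 and −0.55, and Msi1, an RNA-binding protein, one of 0.62. Lgr5, the receptor that marks crypt base stem cells, was at 34.1, 28.2 and 32.4 CPM at day 2 and 23.2, 20.5 and 24.3 CPM at day 14, values that did not overlap between the days and did not pass the test (log2 fold change −0.48, SE 0.28, adjusted p = 0.29). Olfm4, another stem cell marker, was not called (log2 fold change −0.32, adjusted p = 0.486). No gene of the list was called lower without KO day 14 replicate 2 or KO day 2 replicate 3, and 2 were without KO day 14 replicate 3 or KO day 2 replicate 1. Of Tnfrsf19, Cdca7, Prom1, Smoc2 and Msi1, at least 1 lost its call without KO day 2 replicate 1, 2 or 3 or KO day 14 replicate 1, 2 or 3, with DESeq2 size factors, under the filter at a mean count of 50 and with the 20 most abundant genes left out (adjusted p between 0.0536 and 0.211).

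Of 24 proliferation genes, 5 were called lower, 1 higher and 18 in neither direction, beside 5.75% of all genes called lower and 5.54% higher, with a median of −0.44 in KO against 0.00 in WT. Of the 24, 23 had a negative value. Top2a, the replication topoisomerase, fell from 405, 335 and 401 to 239, 225 and 238 CPM (log2 fold change −0.70, SE 0.15, adjusted p = 0.00453), a call that held under every alternative tried. Mki67, the common proliferation marker, was at 599, 657 and 530 CPM at day 2 and 527, 400 and 461 CPM at day 14 and was not called (log2 fold change −0.36, SE 0.17, adjusted p = 0.157). The mitotic kinase Plk1 was the one called higher (log2 fold change 0.45, adjusted p = 0.029), and the spindle and cyclin genes Bub1, Cenpf, Ccna2 and Ccnb2 had log2 fold changes of −0.57, −0.55, −0.61 and −0.61. The number called lower was 1 without KO day 14 replicate 1, 2 or 3 or KO day 2 replicate 1, it was 2 without KO day 2 replicate 3, 3 without the 20 most abundant genes, and 10 without KO day 2 replicate 2. Of Plk1, Bub1, Cenpf, Ccna2 and Ccnb2, at least 1 lost its call without KO day 2 replicate 1, 2 or 3 or KO day 14 replicate 1, 2 or 3, with DESeq2 size factors, with no filter on low counts, under the filter at a mean count of 50 and with the 20 most abundant genes left out (adjusted p between 0.0503 and 0.171).

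Of 21 p53 target genes, 4 were called lower and 1 higher, beside 5.75% and 5.54% of all genes, with medians of −0.29 in KO and −0.005 in WT. Phlda3, an inhibitor of AKT signalling, fell from 2.8, 1.43 and 4.75 to 0.58, 0.883 and 0.472 CPM (log2 fold change −2.22, SE 0.42, adjusted p = 0.00221). Ccng1, cyclin G1, fell from 116, 81.9 and 124 to 45.8, 61.3 and 45.1 CPM (log2 fold change −1.09, SE 0.23, adjusted p = 0.00486). Psrc1, a microtubule-binding protein, fell from 4.86, 4.68 and 6.34 to 2.69, 2.33 and 2.56 CPM (log2 fold change −1.07, SE 0.22, adjusted p = 0.00397). The days did not overlap for these 3 genes, and Psrc1 differed from WT (difference −1.60, SE 0.30, adjusted p = 0.0107). The death receptor Eda2r was called lower with overlapping libraries (log2 fold change −1.72, adjusted p = 0.011) and the kinase Plk3 higher (log2 fold change 0.91, adjusted p = 0.0325). In contrast, Cdkn1a (p21) and Mdm2, both central to the p53 response, were not called (log2 fold change 0.01, adjusted p = 0.981, and log2 fold change −0.29, adjusted p = 0.129). Of Eda2r and Plk3, at least 1 lost its call without KO day 2 replicate 1 or 3 or KO day 14 replicate 1, 2 or 3 and with only the groups compared (adjusted p between 0.0542 and 0.135). The regenerative epithelium list gave 1 of 17 called higher, the cornified envelope gene Sprr1a (log2 fold change 2.12, adjusted p = 0.035), beside 5.54% of all genes. The median of this list was 0.47 in KO and −0.11 in WT. With 1 library left out the KO median lay between 0.21 (without KO day 14 replicate 2) and 0.81 (without KO day 2 replicate 3). Sprr1a lost its call without KO day 2 replicate 1, 2 or 3 or KO day 14 replicate 3 (adjusted p between 0.0757 and 0.144). Ly6a and Clu, common markers of regenerating epithelium, had log2 fold changes of 0.00 and 1.20 (adjusted p = 0.998 and 0.226).

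Of 20 enterocyte and brush border genes, 5 were called lower in KO and 9 in WT, beside 5.75% and 0.871% of all genes, at medians of −0.68 and −1.12. The called genes encode the peptide transporter Slc15a1 (−1.59), the peptidases Dpp4 (−0.78), Anpep (−0.98) and Enpep (−0.75) and the amino acid transporter Slc6a19 (−1.28). The alkaline phosphatase Alpi and the disaccharidase Sis had log2 fold changes of −0.12 and 0.14 (adjusted p = 0.868 and 0.794). None of the 5 calls remained without KO day 14 replicate 1 or 3 or KO day 2 replicate 3, 2 genes were called without KO day 2 replicate 1 and 3 without its replicate 2, and 9 were called with only the groups compared. Of Anpep, Dpp4, Enpep, Slc15a1 and Slc6a19, at least 1 lost its call without KO day 2 replicate 1, 2 or 3 or KO day 14 replicate 1, 2 or 3, with no filter on low counts and with the Xist covariate (adjusted p between 0.0525 and 0.187). Genes of fat absorption and lipoprotein assembly gave no call among 20, with a median of −0.18 in KO against −1.0 and 3 calls lower in WT. The KO median was 0.07 without KO day 14 replicate 1 and −0.35 without its replicate 2. Apoa1 and Apoa4 had log2 fold changes of −0.68 and −0.23 (adjusted p = 0.273 and 0.79).

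A group of genes of unrelated function fell by 3-fold or more in KO without a call in WT. Btbd2, a BTB domain protein, was at 20, 20.4 and 20.8 CPM at day 2 and 4.64, 3.91 and 4.99 CPM at day 14 (log2 fold change −2.18, SE 0.17, adjusted p = 2.24e-06). The KO libraries of each day were close together and the days did not overlap, whereas WT had 19.6, 20.4 and 23.1 CPM at day 2 and 20.3, 32.3 and 22.8 CPM at day 14 (difference −2.44, SE 0.23, adjusted p = 4.58e-05). Arsb, the lysosomal arylsulfatase B, fell from 13.6, 10.2 and 12.3 to 2.9, 2.84 and 2.9 CPM (log2 fold change −2.06, SE 0.18, adjusted p = 6.25e-06). In WT it was between 10.5 and 13.1 CPM in all 6 libraries (difference −2.16, SE 0.24, adjusted p = 0.000209). Nr2e3, an orphan nuclear receptor known from photoreceptors, fell from 3, 2.97 and 2.76 to 0.158, 0.252 and 0.337 CPM (log2 fold change −3.55, SE 0.37, adjusted p = 1.35e-05). WT remained at 4.18, 3.91 and 2.56 CPM at day 2 and 4.08, 5.33 and 4.82 CPM at day 14, and the genotypes differed (difference −3.97, adjusted p = 0.000228). Hlcs, which attaches biotin to carboxylases, fell from 10.1, 11.9 and 11.3 to 3.27, 3.72 and 3.64 CPM (log2 fold change −1.65, SE 0.15, adjusted p = 7.68e-06, and difference −1.73, adjusted p = 0.000345 from WT). At day 7 the KO mean of Btbd2 was already 3.54 CPM.

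Some lysosomal enzymes shared this direction. Glb1, beta-galactosidase, fell from 35.8, 31.6 and 39.6 to 10.6, 14.3 and 12.7 CPM (log2 fold change −1.51, SE 0.15, adjusted p = 1.09e-05). Naglu, which breaks down heparan sulfate, fell from 10.8, 8.16 and 12.6 to 4.16, 4.67 and 5.19 CPM (log2 fold change −1.17, SE 0.20, adjusted p = 0.00101). Both differed from WT (difference −1.55, adjusted p = 0.000996 and difference −1.31, adjusted p = 0.0211), as did the sulfohydrolase Sgsh (log2 fold change −0.80, adjusted p = 0.0036 in KO, difference −1.04, adjusted p = 0.0264). A list of 30 lysosomal genes drawn up after these values were seen had 8 called lower and none higher, beside 5.75% of all genes, but its median of −0.21 was near the WT median of −0.16. Of the 30, 22 were not called.

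Some genes of DNA repair fell as well. Brca2, a mediator of homologous recombination, was at 38, 32.7 and 29 CPM at day 2 and 13.6, 12.5 and 9.58 CPM at day 14 (log2 fold change −1.48, SE 0.15, adjusted p = 9.13e-06). No libraries overlapped, and WT had 40, 39.9 and 34 CPM at day 2 and 38.2, 33.1 and 33.4 CPM at day 14 (difference −1.35, SE 0.20, adjusted p = 0.00225). Rad50, of the complex that senses double-strand breaks, fell from 39.9, 56.4 and 39 to 24.6, 25 and 23.7 CPM (log2 fold change −0.88, SE 0.15, adjusted p = 0.000928). Mgmt, which removes alkyl groups from guanine, fell from 1.6, 2.11 and 1.64 to 0.158, 0.0631 and 0.337 CPM (log2 fold change −3.25, SE 0.54, adjusted p = 0.000766). Both differed from WT (difference −0.90, adjusted p = 0.0379 and difference −3.09, adjusted p = 0.0271). Of 28 genes of recombination and crosslink repair, again listed after values were seen, 8 were called lower and 1 higher, beside 5.75% and 5.54% of all genes, with a median of −0.29 in KO and 0.08 in WT. The number called lower was 4 without KO day 2 replicate 1, and also when genes needed a mean count of 50. It was 5 without any of KO day 14 replicates 1, 2 and 3 and KO day 2 replicate 3.

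Among 30 genes of the primary cilium, also listed after values were seen, 4 were called lower and 1 higher at a median of −0.08, which is 16.7% called in either direction beside 11.3% of all genes. The number called higher was 3 with DESeq2's Wald test or under the filter at a mean count of 50, and 0 with only the groups compared. With 1 library left out the median lay between −0.14 and −0.02. Bbs2, of the BBSome that carries ciliary cargo, fell from 5.52, 5.71 and 5.18 to 1.21, 1.89 and 1.55 CPM (log2 fold change −1.82, SE 0.24, adjusted p = 9.48e-05). Mks1, of the ciliary transition zone, fell from 3.06, 4.39 and 4.31 to 1.37, 1.45 and 1.42 CPM (log2 fold change −1.48, SE 0.24, adjusted p = 0.000645). The kinesin gene Kif27 fell from 2.26, 5.48 and 3.15 to 0.632, 0.442 and 0.607 CPM (log2 fold change −2.68, SE 0.40, adjusted p = 0.000334). For each of the 3 the days did not overlap and the WT change differed (difference −1.93, adjusted p = 0.00452, difference −1.91, adjusted p = 0.00473 and difference −2.52, adjusted p = 0.0171). The transporter gene Slc2a13 fell from 6.12, 3.25 and 5.31 to 0.896, 0.252 and 0.809 CPM (log2 fold change −2.88, SE 0.33, adjusted p = 3.12e-05), and the lysophospholipase-like gene Lyplal1 fell by 3.14 on the log2 scale (adjusted p = 3.64e-05). Xkr5, of the XK family of membrane proteins, had 5 counts over the day 14 libraries and 70 at day 2, a ratio of 12.5 with a 95% counting interval of 5.10 to 39.6. Gprin1, a G protein-regulated neurite factor, moved the other way, from 7.19, 8.44 and 7.68 to 36.8, 41.1 and 44.5 CPM (log2 fold change 2.39, SE 0.23, adjusted p = 9.13e-06), with 6.56, 5.38 and 11.4 CPM at day 2 and 5.67, 6.08 and 7.46 CPM at day 14 in WT (difference 2.67, SE 0.33, adjusted p = 0.000423).

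**Figure D4:**
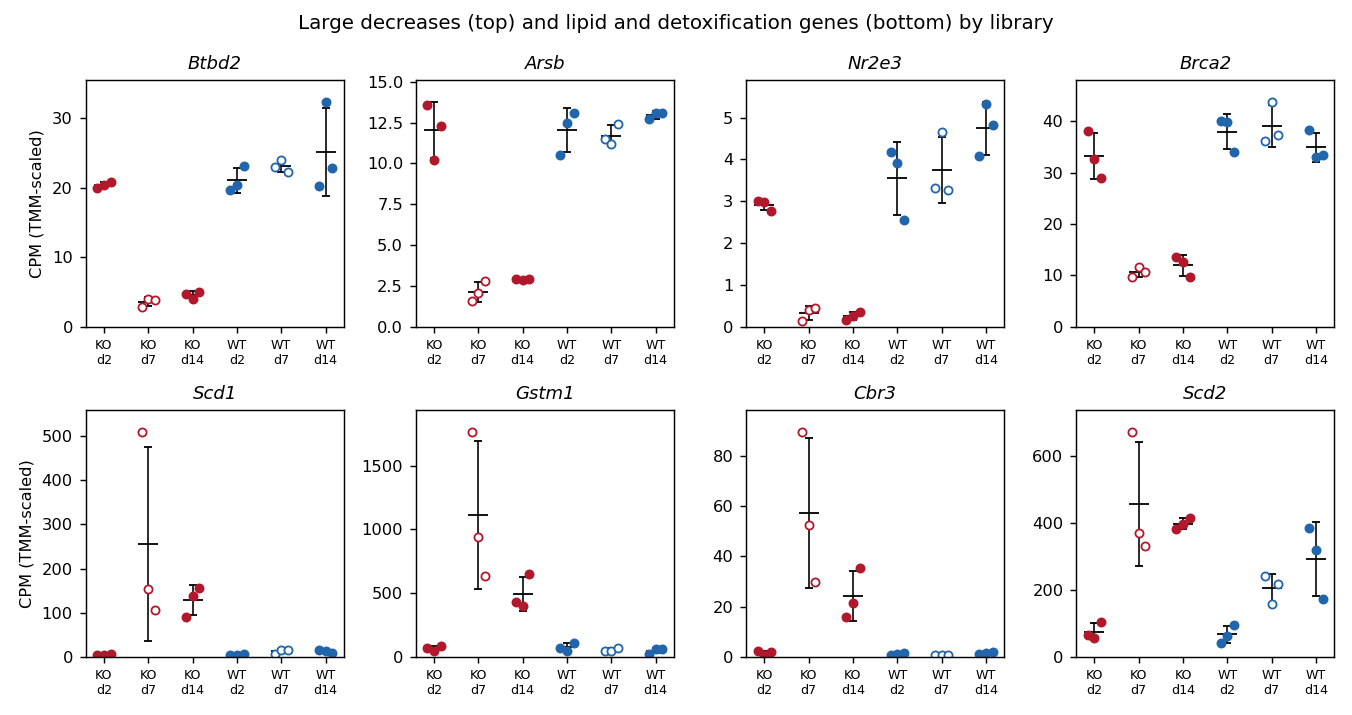
Levels in CPM (vertical axes, starting at 0) of Btbd2, Arsb, Nr2e3 and Brca2, which fell in KO, and of Scd1, Gstm1, Cbr3 and Scd2, which rose, in KO and WT at days 2, 7 and 14, with 1 point per library and the mean ± SD of 3 libraries. The first 4 were not called in WT, and Scd2 rises in both genotypes.

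Scd1, the stearoyl-CoA desaturase that makes monounsaturated fatty acids, was at 4.26, 3.08 and 5.13 CPM in KO at day 2 and 91.2, 138 and 157 CPM at day 14 (log2 fold change 4.94, SE 0.59, adjusted p = 0.000192). All day 14 libraries were far above those of day 2, and WT had 4.14, 3.56 and 6.95 CPM at day 2 and 14.4, 12.8 and 9.31 CPM at day 14, which did not pass its test (difference 3.64, SE 0.77, adjusted p = 0.0366). At day 7 the KO mean was 256 CPM. Its paralogue Scd2 rose from 64, 56.3 and 104 to 382, 396 and 415 CPM in KO (log2 fold change 2.41, SE 0.36, adjusted p = 0.000498). In WT it rose from 41.8, 63.4 and 94 to 385, 320 and 171 CPM (log2 fold change 2.14, adjusted p = 0.0102), and the genotypes did not differ by the test (difference 0.27, adjusted p = 0.902).

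The list of NRF2 targets and glutathione genes had 4 of 20 called higher, beside 5.54% of all genes, none lower and a median of 0.03 in KO and −0.63 in WT. Gstm1, a glutathione transferase, rose from 65.1, 46.9 and 84.3 to 430, 397 and 647 CPM (log2 fold change 2.91, SE 0.44, adjusted p = 0.000651), against 69.3, 45.4 and 107 CPM at day 2 and 24.4, 60.1 and 57.7 CPM at day 14 in WT (difference 3.54, SE 0.59, adjusted p = 0.00775). Gsta3, another transferase, rose from 7.79, 7.25 and 10.1 to 22.1, 20.2 and 27.9 CPM (log2 fold change 1.48, SE 0.24, adjusted p = 0.000752) and differed from WT too (difference 2.23, adjusted p = 0.00343). Both had no overlap between the days, and Gstm1 at day 7 had a KO mean of 1110 CPM. Gstm3 was called higher too (log2 fold change 1.57, adjusted p = 0.0162). Transferases of these families resemble each other, and reads that align to several of them were not counted. Hmox1, the haem oxygenase, had 0.2, 0.399 and 0.345 CPM at day 2 and 0.211, 5.43 and 0.944 CPM at day 14, so that 1 library, KO day 14 replicate 2, set its value (log2 fold change 2.74, adjusted p = 0.0356, and 0.80, adjusted p = 0.459, without it). The quinone reductase Nqo1, a classic NRF2 target, was not called (log2 fold change 0.06, adjusted p = 0.921). Cbr3, a carbonyl reductase, rose from 2.13, 0.742 and 1.73 to 15.7, 21.6 and 35.3 CPM (log2 fold change 3.98, SE 0.47, adjusted p = 0.000109, difference 3.46, adjusted p = 0.0292). Its relative Cbr4, of mitochondrial fatty acid synthesis, fell from 10.5, 10.7 and 8.2 to 1.84, 2.96 and 2.16 CPM (log2 fold change −2.08, SE 0.20, adjusted p = 7.74e-06). The list had 2 calls with no filter or without KO day 2 replicate 1 or 2. Of Gstm3 and Hmox1, at least 1 lost its call without KO day 2 replicate 1, 2 or 3 or KO day 14 replicate 2 or 3 and with no filter on low counts (adjusted p between 0.0515 and 0.459).

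Cytochrome P450 genes, which oxidise drugs, retinoids and lipids, gave 8 of 20 called lower and 1 higher, beside 5.75% and 5.54% of all genes, with medians of −0.96 in KO and −0.91 in WT. Cyp2u1 fell from 22.2, 26.6 and 24.4 to 6.01, 9.4 and 6.88 CPM (log2 fold change −1.72, SE 0.17, adjusted p = 1.09e-05) and by more than in WT (difference −1.16, SE 0.24, adjusted p = 0.0174). Cyp2c66 fell from 69.5, 44.6 and 90.4 to 11.9, 15.2 and 13.4 CPM (log2 fold change −2.34, SE 0.47, adjusted p = 0.00609), and Cyp4f40 and Cyp2j6 had log2 fold changes of −0.61 and −1.10 (adjusted p = 0.00925 and 0.0101). Cyp26b1, which degrades retinoic acid, had 29 counts at day 14 and 2 at day 2, a ratio of 16.3 with a counting interval of 4.12 to 141. The number called lower was 4 without KO day 14 replicate 1 or 3 and 5 without KO day 2 replicate 3. Cyp2j6 lost its call without KO day 14 replicate 1 or 3 (adjusted p between 0.0575 and 0.064).

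Cholesterol synthesis and uptake had 4 of 22 genes called higher, beside 5.54% of all genes, with medians of 0.23 in KO and 0.13 in WT. Among the called were the synthesis enzymes Dhcr7 (log2 fold change 0.81, adjusted p = 0.00518), Lss (log2 fold change 0.69, adjusted p = 0.0124) and Mvd (log2 fold change 0.62, adjusted p = 0.0355), whereas Hmgcs1 was not called (log2 fold change 0.22, adjusted p = 0.49). Only 1 gene was called without KO day 2 replicate 1, and 2 without KO day 14 replicate 2 or 3 or KO day 2 replicate 2. Of Lss and Mvd, at least 1 lost its call without KO day 2 replicate 1, 2 or 3 or KO day 14 replicate 2 or 3 (adjusted p between 0.0528 and 0.158). In the list of fatty acid oxidation and ketogenesis 1 of 19 was called lower in KO, beside 5.75% of all genes, with medians of −0.24 in KO and −0.62 in WT. It was Cpt2, the inner-membrane carnitine palmitoyltransferase, which fell from 77.4, 79.1 and 89.3 to 19.6, 23.7 and 26.4 CPM (log2 fold change −1.82, SE 0.19, adjusted p = 1.35e-05) and by more than in WT (difference −1.11, SE 0.26, adjusted p = 0.046).

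The circadian clock genes, which oscillate over the day in many tissues, gave calls in both genotypes. Of 16 tested, 3 were called higher and 6 lower in KO, beside 5.54% and 5.75% of all genes. In WT 3 were called higher and 7 lower, beside 0.735% and 0.871% of all genes, and none passed the test of the difference. Arntl (BMAL1), the activator of the loop, rose from 22.9, 19.2 and 18.3 to 55.4, 50.4 and 65.6 CPM in KO (log2 fold change 1.51, SE 0.18, adjusted p = 3.71e-05). In WT it rose from 18.4, 21.8 and 23.3 to 58.2, 52.7 and 58.3 CPM (log2 fold change 1.41, adjusted p = 0.00117). The libraries of the days overlapped in neither genotype (difference 0.09, SE 0.25, adjusted p = 0.94). Its partner gene Npas2 rose by 1.25 in KO and 1.06 in WT. Per3, a repressor of the loop, fell from 25, 43 and 27.6 to 4.8, 7 and 4.92 CPM in KO (log2 fold change −2.52, SE 0.29, adjusted p = 6.33e-05). In WT it fell from 49.6, 45.9 and 24.4 to 9.44, 7.74 and 9.78 CPM (log2 fold change −2.15, adjusted p = 0.00206).

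The output factors Dbp, Tef and Hlf, which bind D-box sequences, fell. Dbp went from 17.6, 34.4 and 22.6 to 2.79, 9.21 and 2.16 CPM (log2 fold change −2.40, SE 0.41, adjusted p = 0.00157), with a WT value of −2.90. Tef went from 43.7, 75 and 69.7 to 17.4, 34.3 and 11.3 CPM (log2 fold change −1.58, SE 0.32, adjusted p = 0.00521). Hlf went from 1.93, 3.42 and 2.8 to 0.211, 0.568 and 0 CPM (log2 fold change −3.36, SE 0.64, adjusted p = 0.00247), with WT values of −2.68 and −2.55. The repressors Nr1d2 and Per2 fell by 1.47 and 1.05 on the log2 scale in KO and had −1.84 and −1.36 in WT. Per1, another Period gene, rose from 17, 21.9 and 19.8 to 45.6, 39.4 and 35.9 CPM (log2 fold change 1.04, SE 0.22, adjusted p = 0.00478), against 0.32 in WT. With only the groups compared 2 calls were lost, those of Dbp (adjusted p = 0.0604) and Tef (adjusted p = 0.0792). The hour at which crypts were collected is not given in the sources used here, and its part in these changes was not tested. In KO at day 7 the means were 48.4 CPM for Arntl, 5.8 for Per3 and 7.5 for Dbp.

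CLOCK and BMAL1 bind the E-box CACGTG, which reads the same on both strands. It was found in the 300-base RefSeq windows of 2 of 8 called clock genes with a window (25%) and 4 of 14 tested (28.6%), beside 8.09% of all genes with a window and 10.8% of tested genes. The 250 bases before the start are shown for these 2 called genes, which moved in opposite directions, from build GRCm38.p6 and the plus strand on chr11:69098699-69098948 for Per1 and chr15:81802423-81802672 for Tef, with the motif in capitals 166 and 127 bases before the start.
Per1: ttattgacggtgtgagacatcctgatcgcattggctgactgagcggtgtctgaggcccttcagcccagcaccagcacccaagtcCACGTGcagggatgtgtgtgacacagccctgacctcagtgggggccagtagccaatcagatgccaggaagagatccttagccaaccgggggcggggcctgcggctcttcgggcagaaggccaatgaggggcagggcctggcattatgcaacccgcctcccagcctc
Tef: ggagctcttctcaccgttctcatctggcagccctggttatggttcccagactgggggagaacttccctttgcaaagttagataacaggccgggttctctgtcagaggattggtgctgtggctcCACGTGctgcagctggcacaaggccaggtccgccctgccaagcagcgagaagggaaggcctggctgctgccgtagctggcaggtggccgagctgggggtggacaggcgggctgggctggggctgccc

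Among 14 tested genes of protein arginine methyltransferases and their partners, Prmt1 included, 2 (14.3%) were called lower and none higher, beside 11.3% of all genes called in either direction. These were Prmt3, which fell from 28.5, 26.7 and 28.7 to 19.1, 17.9 and 17.1 CPM (log2 fold change −0.63, SE 0.14, adjusted p = 0.00637), and Fbxo11 (log2 fold change −0.48, adjusted p = 0.00993), while Carm1 was not called (log2 fold change 0.20, adjusted p = 0.244). In the Notch and secretory fate list 1 of 17 was called lower, beside 5.75% of all genes, Nrarp, a Notch target that limits the signal, which fell from 24.1, 21.5 and 30.2 to 11.1, 11 and 12.8 CPM (log2 fold change −1.12, SE 0.21, adjusted p = 0.00191). Atoh1, the master factor of secretory fate, and the ligand Dll1 had log2 fold changes of 0.38 and −0.05 (adjusted p = 0.125 and 0.855). Of 12 BMP and Id genes 1 was called higher, beside 5.54% of all genes, Id4, an inhibitor of helix-loop-helix factors, which rose from 3.93, 2.57 and 5.39 to 11.2, 9.9 and 7.76 CPM (log2 fold change 1.27, SE 0.26, adjusted p = 0.00343). The medians of these lists were −0.12, −0.04 and −0.05, and the last 2 turned positive without KO day 14 replicate 1. Fbxo11 lost its call without KO day 2 replicate 1 or KO day 14 replicate 1 or 3 (adjusted p between 0.0627 and 0.0638).

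In the lists of stress, immune and gut position genes the calls are read beside 5.54% of all genes called higher and 5.75% lower in KO, and 0.735% and 0.871% in WT. In the integrated and ER stress list 1 of 20 was called higher, Ddit3 (log2 fold change 0.58, adjusted p = 0.015), and 2 lower, the ER proteins Creld2 (log2 fold change −0.93, adjusted p = 0.0062) and Manf (log2 fold change −0.62, adjusted p = 0.015). The medians were −0.29 in KO and −0.13 in WT, where 1 was called higher. With 1 library left out the KO median lay between −0.34 and −0.08. The number called lower was 5 without KO day 2 replicate 2 or with DESeq2's Wald test, 4 with only the groups compared, and 1 without KO day 2 replicate 3 or KO day 14 replicate 2 or 3. Interferon-stimulated genes gave 1 call lower among 20, Oas3 (log2 fold change −1.66, adjusted p = 0.0464), with medians of −0.56 in KO and −1.09 in WT, where 3 were called lower. In KO 4 were called lower with only the groups compared, and the median lay between −0.61 and −0.35 with 1 library left out. MHC class II and antigen presentation genes gave none among 15 in KO and 1 lower in WT (medians −0.45 and −0.88). In KO 1 was called lower with DESeq2's Wald test, with no filter on low counts and with only the groups compared. Their KO median lay between −0.54 and −0.29 with 1 library left out. Reg family and antimicrobial genes gave 1 lower among 14 in KO, again Ang4 (−0.54 and 0.29). Their KO median was −0.13 without KO day 14 replicate 2 and −1.02 without its replicate 3, and 4 were called lower with only the groups compared. Immediate early genes gave none among 17 (0.08 and −0.05), and their KO median lay between −0.01 and 0.45 with 1 library left out. Genes that mark positions along the gut gave 1 higher and 1 lower among 20 in KO and 2 higher in WT, at a KO median of −0.06 that was 0.16 without KO day 14 replicate 1. In KO the higher one was Cyp26b1 and the lower one Guca2a, guanylin, which went from 113, 133 and 199 to 34.9, 68.3 and 39.1 CPM (log2 fold change −1.65, SE 0.30, adjusted p = 0.00211). Of Ddit3, Manf and Oas3, at least 1 lost its call without KO day 2 replicate 1, 2 or 3 or KO day 14 replicate 1, 2 or 3, with no filter on low counts and with the Xist covariate (adjusted p between 0.0514 and 0.172).

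Of the markers of other cells in the crypt preparation, intraepithelial T and NK cell genes had none called among 17 at medians of −0.45 in KO and −0.86 in WT. Their summed level was 272.9 to 325.6 CPM at day 2 and 174.0 to 288.9 CPM at day 14 in KO. With only the groups compared 1 was called lower, and the KO median lay between −0.60 and −0.28 with 1 library left out. Cd3e and Cd8a had log2 fold changes of −0.20 and −0.35 (adjusted p = 0.738 and 0.521). Myeloid and B cell genes had 1 of 18 called higher, Cd68 (log2 fold change 1.39, adjusted p = 0.0109), beside 5.54% of all genes, at a median of 0.25, which was −0.19 without KO day 14 replicate 3. Stromal and endothelial genes had none among 16, with summed levels of 35.2 to 144.6 CPM at day 2 and 71.7 to 261.9 CPM at day 14 and a median of 0.54. Of them 2 were called higher with DESeq2's Wald test. The number was 1 with no filter on low counts, under the filter at a mean count of 50 and with the Xist covariate. Blood and fat cell genes had none among 6 at a median of 1.59. The stromal and the blood and fat medians turned on single libraries, being −0.01 and −0.20 without KO day 14 replicate 3, and the stromal median was 1.67 without KO day 2 replicate 3. In the smooth muscle list Acta2 was called higher (log2 fold change 1.54, adjusted p = 0.0075) and Acta1 lower (log2 fold change −1.96, adjusted p = 0.00347). The list had 9 genes tested and a median of 0.22, beside 5.54% of all genes called higher and 5.75% lower. Pancreatic acinar genes gave none among 6 at a median of 1.29. That median was 0.29 over the 3 genes tested with only the groups compared, and −0.39 for the 1 gene tested under the filter at a mean count of 50. No defining marker of these lists was at 0, and their part in the epithelial results was not tested. Cd68 lost its call without KO day 2 replicate 3 or KO day 14 replicate 3 (adjusted p between 0.0593 and 0.0694).

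**Figure D5:**
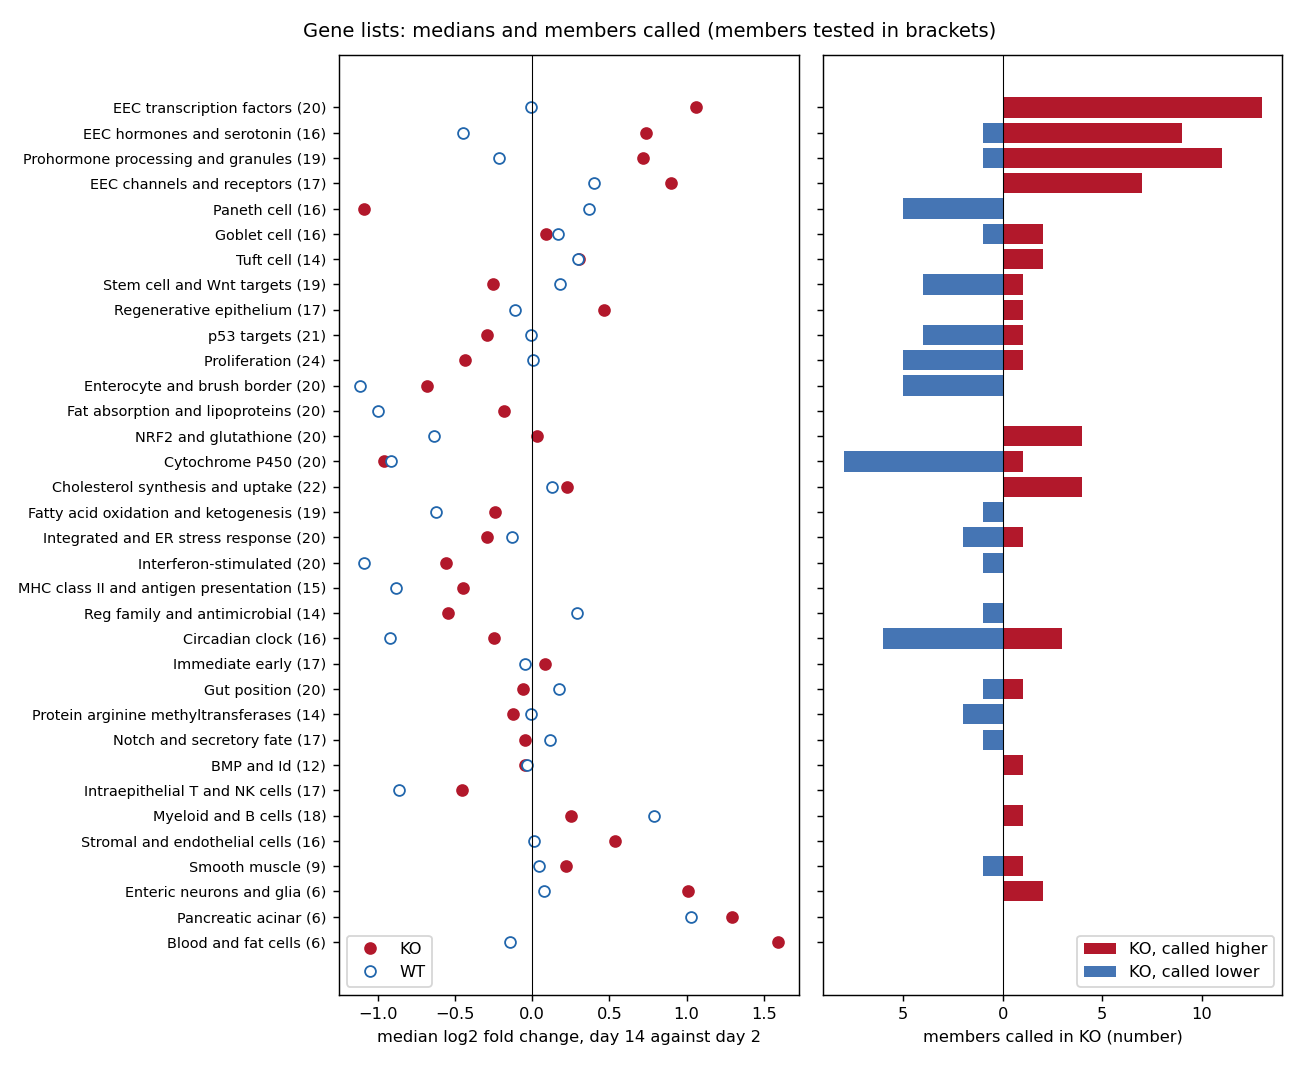
Left, the median log2 fold change from day 2 to day 14 of the tested genes of each of 34 lists in KO and WT. Right, the number of genes of each list called higher (to the right) or lower (to the left) in KO. The 4 EEC lists have the most calls higher and lie right of 0 in KO, and the Paneth cell list has a median of −1.09 in KO and 0.37 in WT.

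Of the 8 largest increases by fitted size, Scd1 is described above and the other 7 belonged to genes with 0 to 4 counts over the day 2 libraries. Atp1b4, of the Na,K-ATPase beta subunit family, had no count at day 2 and 34 at day 14, and was at least 4.09-fold higher against 3 counts over the group. Acrv1, an acrosomal protein, had no count and 31, at least 3.71-fold higher, and Hp, haptoglobin, no count and 15, at least 1.96-fold higher. Car1, carbonic anhydrase 1, had 1 count at day 2 and 127 at day 14, a ratio of 143 with a 95% counting interval of 25.1 to 5674, which covers counting error only. The olfactory receptor genes Olfr827 and Olfr558 had 34 against 1 and 75 against 4 counts, ratios of 38.2 (6.4 to 1551) and 21 (7.89 to 79.2). Moxd2, a monooxygenase-like gene, had 69 against 4 counts, a ratio of 19.4 (7.23 to 73.1). Such genes made up 3 calls with all day 2 libraries at 0, and 3 calls lower had all day 14 libraries at 0. Hp lost its call without KO day 2 replicate 1 or 3 or KO day 14 replicate 3 (adjusted p between 0.0564 and 0.106).

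A further 5 genes that rose were picked after their values were seen and stand for no group. The meiosis gene Msh4 rose from 0.533, 0.399 and 0.259 to 1.53, 2.08 and 1.75 CPM (log2 fold change 2.20, SE 0.40, adjusted p = 0.00153), and Majin and Meioc, also of meiosis, rose by 2.37 and 2.53 on the log2 scale (adjusted p = 0.00342 and 0.0187). The axonal kinesin Kif1a rose from 0.466, 0.742 and 0.647 to 3.9, 4.23 and 4.38 CPM (log2 fold change 2.73, SE 0.34, adjusted p = 6.66e-05) and the pentraxin Nptx2 by 3.06 (adjusted p = 0.000128). Meioc lost its call without KO day 2 replicate 1 or KO day 14 replicate 1 (adjusted p between 0.0726 and 0.0821). Among the largest decreases were 5 predicted genes, Gm11168, Gm10718, Gm10722, Gm10801 and Gm10800, that are near-identical to one another, so their counts are uncertain. Gm10800 was at 56.8, 60.5 and 15.5 CPM at day 2 and 5.9, 3.15 and 2.43 CPM at day 14, with KO day 2 replicate 3 below the other two, and its WT value was −2.57.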

How the data were processed

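RNA-Seq reads of 18 libraries in 6 groups, with 3 mice per group, were aligned by the authors with STAR 2.7.3 and counted with featureCounts 1.6.4, versions that the submitters' processing notes list beside HTSeq. The deposited values are raw counts per gene on mm10, whole numbers without normalization, under a header naming GENCODE release 23, whereas the methods name a later release. Fragments were counted without strand, once for every gene they overlapped, and those with several alignments were not counted. Positions come from the count table and gene types from GENCODE release 21 by identifier (21312 genes).

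Of 55335 genes, the 20 sex-specific genes set aside by the study were left out, and 21349 passed edgeR's filterByExpr. Counts were normalized by TMM, and 1 model with a mean per group was fitted to all 18 libraries with edgeR 4.0.16 (limma 3.58.1, R 4.3.3). Day 14 was compared with day 2 in KO, in WT, and between the KO and WT changes, with the quasi-likelihood test and Benjamini-Hochberg adjustment at 0.05. Every adjusted p in the text comes from that test. A gene called higher or lower passed it, and CPM are normalized to the TMM library sizes. Total counts per library in all groups ran from 12844642 to 31493484. Counting intervals are exact at 95% and cover counting error only. The scripts were tested on simulated data.

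The members and the 34 gene lists were chosen with earlier results of these data known, and 3 further lists after values were seen. The genes named are Prmt1, the 8 largest increases and 8 largest decreases among called protein-coding genes without overlap, the defining and up to 5 called members of each list, and the 6 genes with the smallest adjusted p for the difference. The others were chosen after their values were seen, namely Glb1, Brca2, Rad50, Mgmt, Naglu, Sgsh, Bbs2, Mks1, Kif27, Slc2a13, Lyplal1, Cbr3, Cbr4, Scd2, Per1, Tef, Meioc, Msh4, Majin, Kif1a, Nptx2, Olfr78, Scg5, Ccnb2, Gip, Pyy, Tac1, Sct, Sst, Nts, Lmx1a, Pax6, Nkx2-2, Rfx6, Glis3, St18, Etv1, Isl1, Pcsk1, Cpe and Ffar1. Alternatives were DESeq2 1.42.0's Wald test and its size factors, no filter or a mean count of at least 50, the 20 most abundant genes left out, the sex-specific genes kept, fits of only the groups compared, a block for the replicate number, log2 CPM of Xist as a covariate, and each library left out in turn. Promoter windows were RefSeq's (GRCm38.p6). Python 3.11.15 with pandas 2.3.3, numpy 2.4.6 and matplotlib 3.10.9 was used for sequences and plots. Columns of per-sample values that were not used numbered 0.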

Additional observations from a re-analysis of the deposited data

Results flagged for a closer look

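The change from day 2 to day 14 differed between KO and WT for 223 genes by the test of the difference itself (Benjamini-Hochberg adjusted p of edgeR's quasi-likelihood test), 74 with a more positive and 149 with a more negative change in KO. Among the genes named above, the KO minus WT difference on the log2 scale was positive for Scd1 (3.64), Gstm1 (3.54), Cbr3 (3.46) and Gsta3 (2.23), of lipid desaturation and detoxification, and for Gprin1 (2.67). In the EEC lists it was positive for the granule genes Vgf (3.21), Stxbp5l (2.28), Ptprn (2.22), Cadps (1.49), Cpe (1.05) and Pcsk1 (0.977). It was positive for the factors Fev (2.20), Pax4 (2.19), Neurod1 (1.80), Lmx1a (1.52) and Myt1 (1.26), for the products Tph1 (2.34), Ucn3 (1.87), Chga (1.76), Chgb (1.43) and Gip (1.41), and for the channels Scn3a (1.48) and Kcnh6 (1.27).

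The difference was negative for Nr2e3 (−3.97), Xkr5 (−3.74), Slc2a13 (−3.34), Lyplal1 (−2.95), Btbd2 (−2.44) and Hlcs (−1.73). The same held for the lysosomal enzymes Arsb (−2.16), Glb1 (−1.55), Naglu (−1.31) and Sgsh (−1.04), for the cilium genes Kif27 (−2.52), Bbs2 (−1.93) and Mks1 (−1.91), and for the repair genes Mgmt (−3.09), Brca2 (−1.35) and Rad50 (−0.903). It was negative also for Cbr4 (−1.64), Psrc1 (−1.60), Cyp2u1 (−1.16) and Cpt2 (−1.11). Groups held 3 libraries, too few to test single libraries as outliers.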

How the results depend on the processing

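The KO count of 2411 lay between 2041 and 2960 under the 9 settings other than left-out libraries, and between 1136 and 2892 with 1 library left out. The WT count of 343 was 1383 with DESeq2's Wald test, 1011 with no filter on low counts, 770 under a filter at a mean count of 50, 619 with the Xist covariate and 28 with only the groups compared, and between 22 and 712 with 1 library left out. With the 20 most abundant genes left out, 57.1% of the WT calls were higher against 45.8% in the fit reported, and 67.9% with only the groups compared. Leaving out 1 library gave shares from 19.9% (without WT day 2 replicate 2) to 59% (without WT day 2 replicate 3). The count for the KO minus WT difference, 223, was 509 with DESeq2's Wald test and 433 with no filter, and between 111 and 222 with 1 library left out. The causes were not tested, apart from the fewer or more genes tested that the filters entail. Prmt1 kept its direction and was called in no setting (log2 fold change 0.03 to 0.17). Of 170 other named genes, 145 were called, 93 of these under every setting that tested them (some genes were left out by a setting's own filter), and 52 lost the call in at least 1, of which 30 lost it only with a library left out. No called gene changed sign. Lgr5 passed with only the groups compared (−0.45, adjusted p = 0.0423). Genes that were not called changed sign as follows. Ly6a (−0.00) had 0.0294 with DESeq2's Wald test, 0.0255 with its size factors, 0.0520 under the filter at a mean count of 50, 0.0270 without the 20 most abundant genes, 0.0282 with only the groups compared and 0.0318 with the Xist covariate. Dll1 had 0.00146 under the filter at a mean count of 50. With 1 library left out, the values ran from −0.287 to 0.355 for Ly6a, −0.143 to 0.0499 for Dll1, −0.375 to 0.0672 for Alpi, −0.650 to 0.106 for Apoa4, −0.133 to 0.165 for Cdkn1a, −0.333 to 0.232 for Nts, −0.180 to 0.209 for Nqo1 and −0.0247 to 0.0721 for Muc2.

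With the replicate number as a block the counts were 2234 in KO, 173 in WT and 211 for the difference, and Prmt1 had 0.10 (adjusted p = 0.703). Under this block Itln1, Msi1, Smoc2, Enpep, Hmox1, Oas3 and Etv1 lost their calls in KO (adjusted p between 0.0597 and 0.0651). Same-numbered libraries of days 14 and 2 had correlations of their deviations of 0.0943, −0.0163 and 0.141 in KO and −0.0326, −0.234 and −0.00325 in WT, so the numbers were not taken as pairs. With 3 mice per group the spread between mice limits which changes pass, and below about 1 CPM counting error adds to it.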

Other observations

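The KO libraries of day 7 entered the fit and none of the comparisons above, and their levels (mean ± SD, n = 3) show where the genes stood between days 2 and 14. Of the EEC factors, Neurog3 was at 6.1 ± 0.973 CPM, Neurod1 at 6.78 ± 1.31 CPM and Pax4 at 1.68 ± 0.226 CPM. For the products, Chga was at 141 ± 6.01 CPM, Tph1 at 42.1 ± 5.5 CPM and Ghrl at 6.8 ± 0.749 CPM. Of the Paneth cell list, Mmp7 was at 71.1 ± 34.4 CPM, Ang4 at 65.8 ± 30.9 CPM and Spink4 at 195 ± 29.1 CPM. Of the genes that fell, Arsb was at 2.14 ± 0.622 CPM, Nr2e3 at 0.319 ± 0.162 CPM and Brca2 at 10.6 ± 0.967 CPM. Of the genes that rose, Gstm1 was at 1110 ± 580 CPM, Cbr3 at 57.3 ± 30.1 CPM and Gprin1 at 54.4 ± 7.59 CPM.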
